A study of Homo sapiens with 6 samples.

Results

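Ribosome biogenesis and nucleolar genes encode the proteins that make ribosomal RNA and assemble it into ribosomal subunits. The group was chosen by gene symbol as 57 members of the 35410 genes in the table of counts, and all 57 symbols were found as rows of that table. The 57 members comprise 6 genes of RNA polymerase I transcription, 4 genes of abundant nucleolar proteins, 4 genes of box C/D and 4 of box H/ACA small nucleolar ribonucleoproteins (snoRNPs), 14 genes of the small subunit processome, 5 genes of the maturation and export of the small subunit precursor, 3 genes of the PeBoW complex and 17 genes of the assembly of the large subunit precursor. RNA was measured by MACE-Seq, a method that reads the 3′ ends of transcripts with a poly(A) tail, in 6 libraries. They are labelled as the established human proB leukemia line SEM, which carries the KMT2A::AFF1 fusion. SEM::mock was transfected with an empty vector and SEM::EGR3 with a vector for the inducible expression of the transcription factor EGR3. Both lines received 1 µg/mL doxycycline for 48 h before RNA was extracted, and each line gave 3 libraries from biological replicates. The comparison asks how the transcripts of these genes differ between the EGR3 expressing line and its empty vector control.

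RNA polymerase I transcribes the ribosomal RNA precursor in the nucleolus, where box C/D snoRNPs methylate it and box H/ACA snoRNPs convert uridines to pseudouridines. The small subunit processome then folds and cleaves the part that becomes the small subunit, while separate assembly factors, helicases and GTPases build the large subunit. Transcripts of these genes are abundant in dividing cells, leukemia cells included, and MYC is a known activator of many of them through the E-box sequence CACGTG.

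The labels of the libraries were first checked against the overexpressed gene and against marker genes of blood cells. EGR3 was at 1.41, 1.67 and 1.17 CPM (the count scaled to a common library size with TMM normalization factors) in the libraries labelled SEM::mock and at 627, 664 and 612 CPM in those labelled SEM::EGR3. Of 12 B-lineage markers, 9 had at most 3 counts in each of the 3 SEM::mock libraries, among them PAX5, EBF1 and CD79A, and 3 had at most 3 counts in each SEM::EGR3 library (BLNK, DNTT and RAG2). The summed level of the 12 B-lineage markers was between 2.64 and 5.86 CPM in SEM::mock and between 495 and 522 CPM in SEM::EGR3. Known targets of KMT2A fusions summed to between 58.2 and 68.6 CPM in SEM::mock, with HOXA7 and HOXA9 at no more than 3 counts in each library, and to between 869 and 926 CPM in SEM::EGR3. The 12 erythroid and megakaryocyte markers summed to between 4861 and 5204 CPM in SEM::mock and to between 6170 and 6406 CPM in SEM::EGR3, where 3 of 11 tested genes were higher and 8 lower, and HBE1 stayed at the detection limit in both lines. Myeloid markers summed to between 290.2 and 299.9 CPM in SEM::mock and between 219.8 and 223.2 CPM in SEM::EGR3, where CEBPA was higher and LYZ and CD33 were lower of 4 tested genes. T cell markers summed to between 60.2 and 66.2 CPM and between 79.5 and 88.1 CPM, respectively, where TRAC and CD2 were higher and CD3D and CD3E lower of 4 tested genes, with TRAC at a mean of 1.203 and 74.4 CPM and CD3D at 57.9 and 6.24 CPM. All 3 libraries labelled SEM::mock thus lack most defining markers of the proB line, so no comparison can be made without them. The SEM::EGR3 libraries hold most B-lineage markers, but their erythroid markers sum to at least 6170 CPM. These markers therefore do not settle the identity of either line. The identity of the 2 cell populations and the expression of EGR3 cannot be told apart as sources of any difference below. Whether the marker differences have a part in the results for the ribosome biogenesis genes was not tested.

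**Figure D1:**
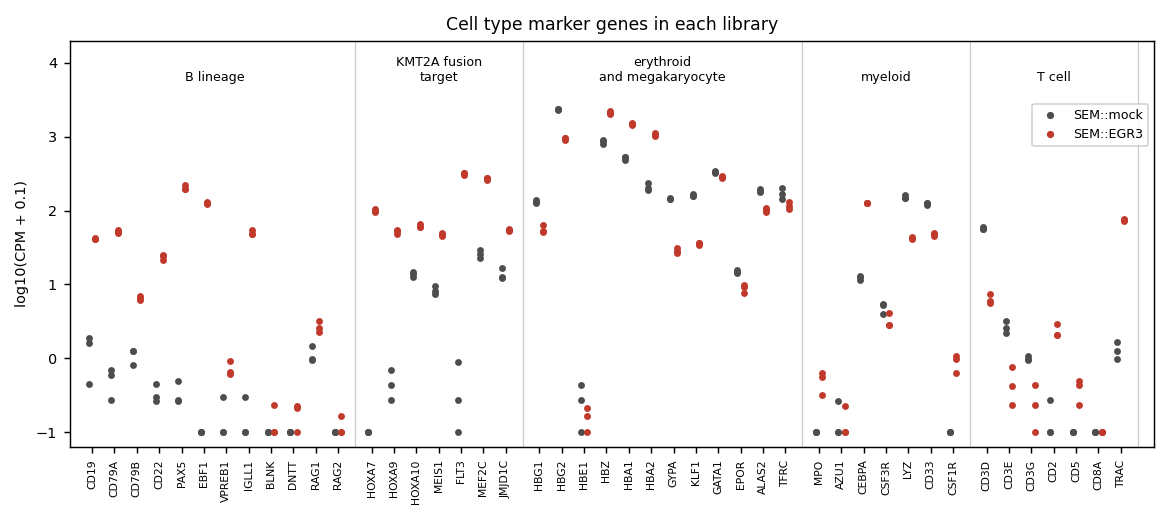
Level of each marker gene in each library as log10 of CPM plus 0.1, with 1 point per library, SEM::mock in grey and SEM::EGR3 in red, grouped by cell type. B-lineage markers sum to at most 5.86 CPM in SEM::mock and to at least 495 CPM in SEM::EGR3, and erythroid genes are high in both lines.

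Library depth, as the sum of all listed counts, ranged from 5286115 to 6181388 in SEM::mock and from 7293092 to 15106018 in SEM::EGR3. The members with reads had between 116 and 5010 counts per SEM::mock library and between 179 and 12336 counts per SEM::EGR3 library. Sampling error is therefore larger in SEM::mock. Of the 57 members, 56 passed the filter on low counts and were tested with edgeR's quasi-likelihood test over all 15465 tested genes. NOP2, the methyltransferase of the large subunit RNA, had 0 counts in each of the 6 libraries, a value that allows up to 3 counts per library by counting error alone. NOP2 (ENSG00000111641) lies at chr12:6556863-6568691 on the minus strand of GRCh38. Its exons overlap those of a longer coding gene on the same strand, AC006064.6 at chr12:6556886-6607367. AC006064.6 has no row in the table of counts. Whether reads in the shared exons were left uncounted was not tested, and the level of NOP2 is unknown.

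Differences in the ribosome biogenesis genes were small and more of them were lower than higher in SEM::EGR3. Of 56 members tested, 30 (53.6%) were lower, 9 (16.1%) were higher and 17 were not called at an adjusted p-value under 0.05 (edgeR), while of all tested genes 32.0% were lower and 36.5% higher. In all, 68.5% of tested genes were called in either direction, and the difference between the members and other genes in the balance of directions is given as counts, without a test. The median log2 fold change of the members was −0.15, compared to 0.03 over all tested genes, and the values ranged from −0.62 for GNL2 to 0.64 for UBTF. No member was called with a log2 fold change of 1 or more in either direction, whereas 25.2% of all tested genes were. The median absolute log2 fold change was 0.23 in the members and 0.46 over all tested genes. Libraries of the 2 lines did not overlap for 40 of 56 members (71.4%), beside 70.1% of all tested genes. In bulk RNA, fewer cells of a type and less RNA per cell cannot be told apart.

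Members were expressed at intermediate to high levels, so genes with a mean level within their range, between 24.7 and 833 CPM, were also examined. This range was chosen after the values were seen. Of 6834 such genes, 40.2% were lower and 32.3% higher in SEM::EGR3, with a median log2 fold change of −0.06 and a median absolute log2 fold change of 0.33, beside 0.23 in the members. Lower calls thus also outnumbered higher calls among all genes of these levels. A call in either direction was made for 72.5% of them, a call with a log2 fold change of 1 or more for 11.8%, and 73.8% had libraries that did not overlap between the lines, beside 71.4% of the members. Without normalization factors, which shifts the fold changes of all genes by a median of 0.08 on the log2 scale, 23 members were lower and 13 higher, beside 27.95% and 40.6% of all tested genes.

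**Figure D2:**
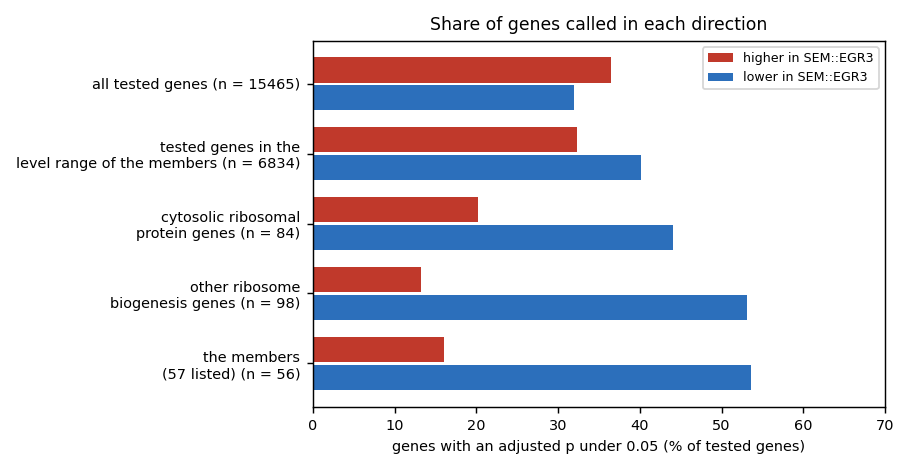
Percent of tested genes with an adjusted p-value under 0.05 (edgeR) that were higher (red) or lower (blue) in SEM::EGR3 than in SEM::mock, for all tested genes, for genes in the level range of the members and for 3 groups of ribosome genes. Higher genes are the larger share over all tested genes (36.5%), and lower genes are the larger share in the members (53.6%).

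The members together accounted for 0.744%, 0.717% and 0.733% of all listed counts in SEM::mock and for 0.702%, 0.691% and 0.704% in SEM::EGR3. The ranges of the lines did not overlap. The mean was 0.731% ± 0.0140 (SD, n = 3) in SEM::mock and 0.699% ± 0.00730 (SD, n = 3) in SEM::EGR3, a difference of −0.0323 percentage points with an exact permutation p = 0.1 (two-sided), the smallest that 3 against 3 libraries allow. Cytosolic ribosomal protein genes took 10.7% ± 0.209 (SD, n = 3) and 10.8% ± 0.330 (SD, n = 3) of the counts, with an exact permutation p = 0.8 (two-sided). The share of the members was lower in each SEM::EGR3 library than in each SEM::mock library, whereas the shares of the ribosomal protein genes overlapped.

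Promoter sequences are shown for the members with the lowest and the highest called fold change among those holding an E-box (GNL2 and IMP4), for the other member that holds a binding sequence of the EGR family (NOP56), and for the member with the highest fold change (UBTF). They come from RefSeq for GRCh38.p14, are written 5′ to 3′ on the strand of the gene, and run from 250 bases before to 30 bases after the first listed start. Capitals mark the E-box CACGTG and the EGR sequence GCGGGGGCG. GNL2 is shown at chr1:37595908-37596187 (minus strand), IMP4 at chr2:130342647-130342926 (plus strand), NOP56 at chr20:2652382-2652661 (plus strand) and UBTF at chr17:44220853-44221132 (minus strand).
GNL2: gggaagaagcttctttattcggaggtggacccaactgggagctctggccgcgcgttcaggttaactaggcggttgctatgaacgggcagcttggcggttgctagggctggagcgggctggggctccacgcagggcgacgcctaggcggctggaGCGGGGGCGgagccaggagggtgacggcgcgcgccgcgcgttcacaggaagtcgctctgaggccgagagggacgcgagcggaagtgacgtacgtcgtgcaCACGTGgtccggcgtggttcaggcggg
IMP4: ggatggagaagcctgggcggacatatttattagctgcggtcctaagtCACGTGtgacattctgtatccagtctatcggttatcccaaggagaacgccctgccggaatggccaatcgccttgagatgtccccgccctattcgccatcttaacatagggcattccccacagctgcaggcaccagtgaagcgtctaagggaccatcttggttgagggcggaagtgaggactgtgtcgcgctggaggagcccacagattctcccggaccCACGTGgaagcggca
NOP56: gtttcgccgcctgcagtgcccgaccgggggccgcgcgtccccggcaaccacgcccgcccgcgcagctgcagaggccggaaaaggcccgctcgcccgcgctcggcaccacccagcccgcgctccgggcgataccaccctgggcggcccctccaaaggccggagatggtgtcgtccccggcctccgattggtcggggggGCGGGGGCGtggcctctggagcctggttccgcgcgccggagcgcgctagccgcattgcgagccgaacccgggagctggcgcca
UBTF: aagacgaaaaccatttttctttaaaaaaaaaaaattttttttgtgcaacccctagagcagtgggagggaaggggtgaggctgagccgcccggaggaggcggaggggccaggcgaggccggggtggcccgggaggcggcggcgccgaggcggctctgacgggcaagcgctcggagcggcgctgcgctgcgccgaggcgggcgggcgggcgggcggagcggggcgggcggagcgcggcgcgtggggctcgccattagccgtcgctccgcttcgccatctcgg
GNL2 holds 1 E-box close to its start and 1 EGR sequence further upstream, IMP4 holds 2 E-boxes, NOP56 holds 1 EGR sequence, and neither is present in the window of UBTF. The genes that hold an E-box include a member that was lower (GNL2) and a member that was higher (IMP4) in SEM::EGR3.

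RefSeq promoters were found for 49 of the 57 members, of which 10 had several, and the first listed promoter of each was used. Both strands were searched, from 250 bases before to 50 bases after the start, for 6 strings chosen with the results in view. Longer strings were also searched at first and are not reported. The E-box CACGTG was present in 18 of 49 members (36.7%), compared to 7.26% of 35116 promoters and 10.4% of the promoters of 10342 tested genes. Of the 18 genes, 10 were lower, 2 higher, 5 not called and 1, NOP2, was not tested. The E-box was present in 10 of 28 lower, 2 of 7 higher and 5 of 13 uncalled members with a promoter, and the median log2 fold change was −0.30 with and −0.16 without it. It was thus found in members of each call. The EGR sequence GCGTGGGCG was present in 0 of 49 members, 0.795% of promoters and 1.36% of those of tested genes. Its variant GCGGGGGCG was present in 2 of 49 members (4.08%), 5.07% of promoters and 8.33% of those of tested genes. The ETS core CCGGAAG was present in 20 of 49 members (40.8%), compared to 10.3% of promoters and 19.5% of those of tested genes, and the longer ACCGGAAGT, which contains it, in 2 members (4.08%), compared to 0.9995% of promoters and 2.10% of those of tested genes. The YY1 string AAGATGGCG was present in 4 members (8.16%), compared to 1.75% of promoters and 3.98% of those of tested genes. With any listed promoter, 21 members held the E-box, 22 the ETS core and 3 the longer ACCGGAAGT, and the other counts were unchanged. A match describes letters in a window and not binding.

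MYC, chosen after its values were seen because it is a known E-box factor, was at 162, 171 and 179 CPM in SEM::mock and at 99.2, 93.8 and 104 CPM in SEM::EGR3. It was lower by a log2 fold change of −0.79 (SE 0.06, adjusted p = 1.86e-11, edgeR). The part of MYC in the values of the members was not tested.

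Genes of RNA polymerase I transcription were called in both directions. Of 6 members, UBTF and RRN3 were higher (33.3%), POLR1A, POLR1C and TAF1D were lower (50%), and POLR1B was not called. Over all tested genes, 36.5% were higher and 32.0% lower, so calls in both directions are not particular to these members. UBTF (ENSG00000108312, chromosome 17), which binds ribosomal DNA and keeps it in an open state, was at 114, 102 and 111 CPM in SEM::mock and at 164, 171 and 172 CPM in SEM::EGR3. All 3 SEM::EGR3 libraries were above all 3 SEM::mock libraries, and the log2 fold change of 0.64 (SE 0.06, adjusted p = 7.49e-10, edgeR) was the highest of the members. TAF1D (ENSG00000166012, chromosome 11), a subunit of the promoter selectivity factor SL1, was at 146, 167 and 161 CPM in SEM::mock and at 117, 109 and 116 CPM in SEM::EGR3. Its groups did not overlap and it fell by 0.47 on the log2 scale (SE 0.06, adjusted p = 2.59e-07, edgeR). POLR1A (ENSG00000068654, chromosome 2), the largest subunit of RNA polymerase I, was at 50.7, 44.4 and 53.5 CPM in SEM::mock and at 40.6, 44.7 and 39.8 CPM in SEM::EGR3. The highest SEM::EGR3 library of POLR1A lay just above the lowest SEM::mock library, the log2 fold change was −0.25 (SE 0.08, adjusted p = 0.00831, edgeR), and without normalization factors the call was lost (adjusted p = 0.0602, edgeR). RRN3, the initiation factor that recruits RNA polymerase I, had a log2 fold change of 0.42. Rows of its pseudogenes held 25, 47 and 27 counts in SEM::mock, beside 182, 197 and 162 for RRN3. In SEM::EGR3 they held 262, 129 and 160 counts, beside 724, 301 and 376 for RRN3. The pseudogenes thus held between 13.7% and 42.9% as many counts as RRN3 itself, so its value is uncertain. This share was larger in each SEM::EGR3 library than in each SEM::mock library, and its part in the call was not tested.

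Of the 4 genes of abundant nucleolar proteins, DDX21 was lower and NCL, NPM1 and NOLC1 were not called. NCL (ENSG00000115053, chromosome 2) encodes nucleolin, an RNA-binding protein of the dense fibrillar component, and was at 722, 751 and 737 CPM in SEM::mock and at 792, 698 and 791 CPM in SEM::EGR3. The groups overlapped, with SEM::EGR3 holding both the lowest and the highest library (log2 fold change 0.05, SE 0.05, adjusted p = 0.449, edgeR). NPM1 (ENSG00000181163, chromosome 5) encodes nucleophosmin, a chaperone of the granular component, and was at 862, 836 and 859 CPM in SEM::mock and at 788, 835 and 817 CPM in SEM::EGR3. The SEM::EGR3 libraries were below those of SEM::mock by a narrow margin, and the log2 fold change of −0.07 (SE 0.05, adjusted p = 0.22, edgeR) did not pass the test and was 0.0074 without normalization factors. DDX21 (ENSG00000165732, chromosome 10), an RNA helicase, was at 212, 204 and 217 CPM in SEM::mock and at 188, 191 and 193 CPM in SEM::EGR3. It was lower without overlap by a log2 fold change of −0.15 (SE 0.05, adjusted p = 0.0176, edgeR), a call that 5 of 14 alternatives ended with adjusted p-values between 0.0555 and 0.245. Leaving out SEM::EGR3 replicate 1 was among them (adjusted p = 0.0702, edgeR). NCL and NPM1 were thus within 0.07 of 0 on the log2 scale. FBL, which also encodes a nucleolar protein and is given below, had a log2 fold change of −0.35.

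Transcripts for core proteins of box C/D snoRNPs differed in opposite directions. FBL (ENSG00000105202, chromosome 19), fibrillarin, the methyltransferase of these particles, was at 577, 580 and 599 CPM in SEM::mock and at 450, 472 and 458 CPM in SEM::EGR3. FBL was lower in all 3 SEM::EGR3 libraries and fell by 0.35 on the log2 scale (SE 0.05, adjusted p = 9.44e-07, edgeR). NOP58 (ENSG00000055044, chromosome 2), a scaffold protein of the particle, was at 324, 297 and 326 CPM in SEM::mock and at 240, 255 and 241 CPM in SEM::EGR3, and fell by 0.36 (SE 0.05, adjusted p = 2.29e-06, edgeR). NOP56 (ENSG00000101361, chromosome 20), its partner in the scaffold, was at 223, 230 and 242 CPM in SEM::mock and at 265, 275 and 262 CPM in SEM::EGR3. NOP56 rose without overlap between the lines, by 0.21 (SE 0.05, adjusted p = 0.00156, edgeR), while FBL and NOP58 fell. Rows of NOP56 pseudogenes held 11.1% to 12.8% of the count of the gene. RRP9, a protein of the U3 particle, had a log2 fold change of −0.17 and was not called (adjusted p = 0.0588, edgeR).

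Of the genes of box H/ACA snoRNP proteins, DKC1, GAR1 and NOP10 were lower and NHP2 was not called. DKC1 (ENSG00000130826, chromosome X), dyskerin, the pseudouridine synthase that also binds telomerase RNA, was at 179, 190 and 190 CPM in SEM::mock and at 133, 129 and 137 CPM in SEM::EGR3. No library of SEM::EGR3 reached the range of SEM::mock, and DKC1 fell by 0.49 (SE 0.06, adjusted p = 2.79e-08, edgeR). NOP10 (ENSG00000182117, chromosome 15), the smallest protein of the particle, was at 148, 148 and 151 CPM in SEM::mock and at 145, 129 and 133 CPM in SEM::EGR3. The library SEM::EGR3 replicate 1 was close to the SEM::mock libraries, and the log2 fold change of −0.13 (SE 0.06, adjusted p = 0.0457, edgeR) lost its call in 11 of 14 alternatives, with adjusted p-values between 0.0549 and 0.398. The adjusted p-value (edgeR) of NOP10 was 0.0549 without SEM::mock replicate 2, 0.0729 without SEM::mock replicate 3, 0.173 without SEM::EGR3 replicate 2 and 0.143 without SEM::EGR3 replicate 3. NHP2 (ENSG00000145912, chromosome 5) was at 212, 211 and 199 CPM in SEM::mock and at 216, 221 and 212 CPM in SEM::EGR3, with a log2 fold change of 0.06 (SE 0.05, adjusted p = 0.321, edgeR). DKC1 was therefore the member of this particle with the largest difference, at −0.49 beside values between −0.16 and 0.06 for the other 3.

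**Figure D3:**
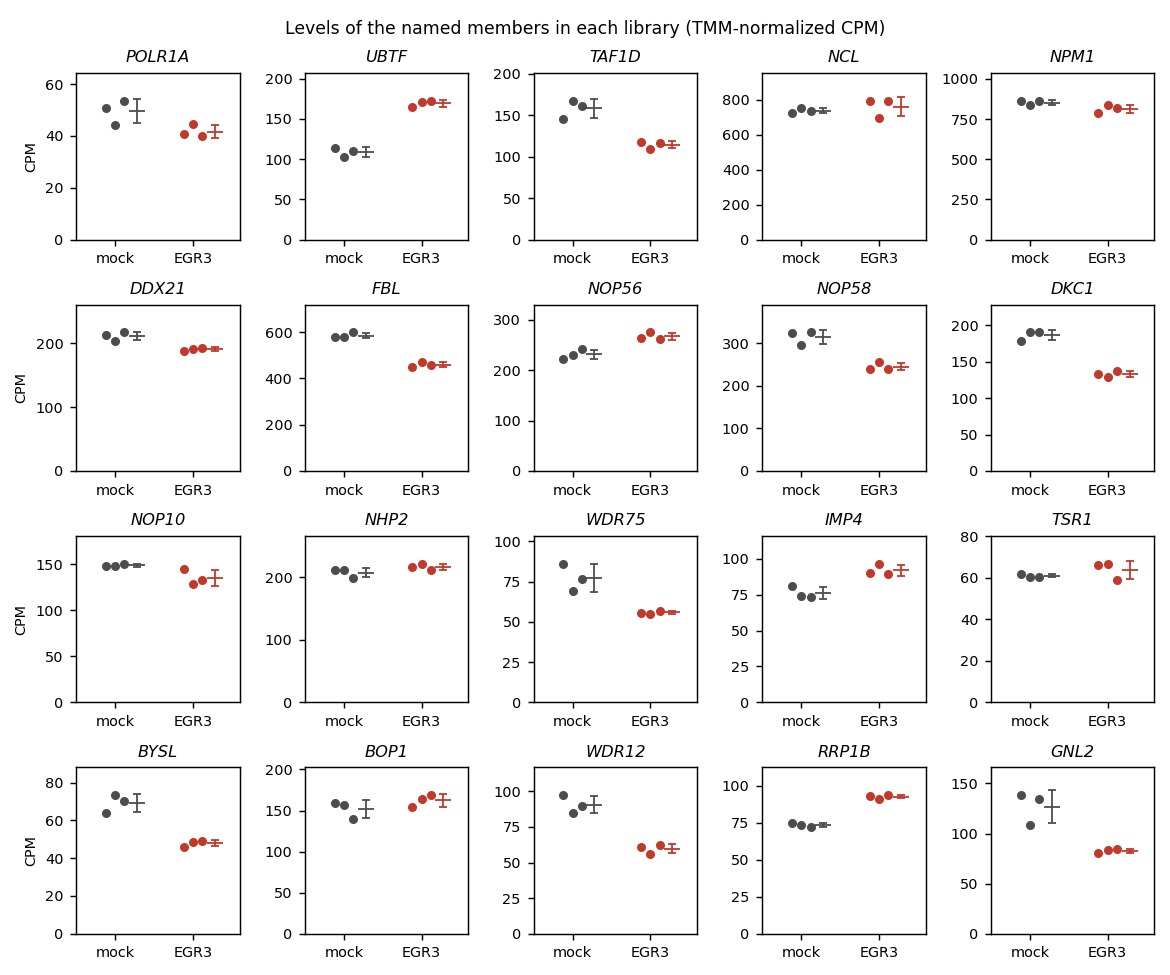
Levels in CPM of the 20 named members in each library, with 1 point per library and the mean and SD (n = 3) beside it, SEM::mock in grey and SEM::EGR3 in red. Lines are apart for genes such as UBTF, FBL, DKC1, WDR12 and GNL2, and overlap for POLR1A, NCL, TSR1 and BOP1.

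The small subunit processome, the early particle that forms around the U3 snoRNA, had 7 of 14 members lower, 2 higher and 5 not called. WDR75 (ENSG00000115368, chromosome 2), a subunit of its UTP-A complex, was at 86.1, 69.2 and 76.4 CPM in SEM::mock and at 55.6, 55.1 and 56.9 CPM in SEM::EGR3. All SEM::EGR3 libraries of WDR75 were lower and lay close together, and the gene fell by 0.47 (SE 0.07, adjusted p = 4.71e-06, edgeR), the largest decrease of the processome. IMP4 (ENSG00000136718, chromosome 2), a U3 snoRNP protein whose promoter with 2 E-boxes is printed above, was at 81.1, 74.2 and 73.4 CPM in SEM::mock and at 89.7, 96.5 and 89.6 CPM in SEM::EGR3. It rose without overlap, by 0.27 (SE 0.06, adjusted p = 0.000832, edgeR). IMP3, its partner, fell by 0.25 (adjusted p = 0.000713, edgeR). UTP4, UTP6, WDR43 and DDX10 were lower by log2 fold changes between −0.34 and −0.32, with overlapping libraries for DDX10, and MPHOSPH10, which binds IMP3 and IMP4, by −0.17. The log2 fold change of DDX10 was −0.22 without SEM::mock replicate 3 (adjusted p = 0.0944, edgeR). NOC4L was higher by 0.19. The members not called, UTP3, UTP15, UTP18, UTP20 and NOP14, had values between −0.05 and 0.06. Of the subunits of UTP-A, UTP4, WDR43 and WDR75 were lower and UTP15 was not called.

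Of 5 members that mature and export the small subunit precursor, BYSL, LTV1 and NOB1 were lower and TSR1 and RRP12 were not called. BYSL (ENSG00000112578, chromosome 6), bystin, was at 64.1, 73.4 and 70.3 CPM in SEM::mock and at 46.2, 48.8 and 49.2 CPM in SEM::EGR3. The lines were well apart for BYSL, which fell by 0.53 (SE 0.07, adjusted p = 3.72e-07, edgeR). TSR1 (ENSG00000167721, chromosome 17), a GTPase-like factor of the late precursor, was at 61.9, 60.6 and 60.5 CPM in SEM::mock and at 66.1, 66.8 and 59.0 CPM in SEM::EGR3. Its groups overlapped (log2 fold change 0.07, SE 0.07, adjusted p = 0.383, edgeR). NOB1, the nuclease that makes the final cut of the small subunit RNA, fell by 0.21, and LTV1, an export factor, by 0.30.

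The PeBoW complex, which consists of PES1, BOP1 and WDR12 and is needed for processing of the large subunit RNA, had 1 member that was called. WDR12 (ENSG00000138442, chromosome 2) was at 97.3, 85.1 and 89.8 CPM in SEM::mock and at 61.1, 55.9 and 62.1 CPM in SEM::EGR3. It fell without overlap by 0.60 (SE 0.07, adjusted p = 2.96e-08, edgeR). BOP1 (ENSG00000261236) was at 159, 157 and 140 CPM in SEM::mock and at 154, 164 and 169 CPM in SEM::EGR3. The BOP1 groups overlapped with a log2 fold change of 0.09 (SE 0.06, adjusted p = 0.186, edgeR), which was called higher without normalization factors (adjusted p = 0.0191, edgeR) and with at least 10 counts in every library (adjusted p = 0.0448, edgeR). PES1 had a log2 fold change of 0.02 (adjusted p = 0.793, edgeR).

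Assembly of the large subunit held the most members and the lowest median log2 fold change of the 8 roles, −0.31, with 10 of 16 tested genes lower, 4 higher and 2 not called. GNL2 (ENSG00000134697, chr1:37566816-37595935, minus strand), a nucleolar GTPase of the precursor, was at 138, 108 and 134 CPM in SEM::mock and at 80.6, 83.3 and 84.2 CPM in SEM::EGR3. The SEM::mock libraries of GNL2 were spread, but all exceeded those of SEM::EGR3, and the gene fell by 0.62 (SE 0.07, adjusted p = 5.46e-08, edgeR). RRP1B (ENSG00000160208, chromosome 21), a processing factor that also binds chromatin, was at 75.1, 73.7 and 72.3 CPM in SEM::mock and at 92.9, 91.5 and 93.8 CPM in SEM::EGR3. Replicates of RRP1B lay close together in both lines, and it rose by 0.33 (SE 0.06, adjusted p = 3.81e-05, edgeR). NOC2L, BRIX1 and DDX56 were lower by values between −0.62 and −0.58, and NIP7, EBNA1BP2, MRTO4 and SDAD1 by values between −0.48 and −0.40. NOP16 and PPAN had log2 fold changes of −0.21 and −0.15. GNL3 (nucleostemin), NOC3L and the helicase DDX18 were higher by 0.18 to 0.23, with overlapping libraries for GNL3 and NOC3L. The log2 fold change of GNL3 was 0.11 without SEM::mock replicate 3 (adjusted p = 0.269, edgeR). RRP1, the paralog of RRP1B, and RRS1 were not called. Rows of SDAD1 pseudogenes held up to 32.3% of the count of SDAD1, so its value is uncertain. This share was larger in each SEM::EGR3 library than in each SEM::mock library.

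**Figure D4:**
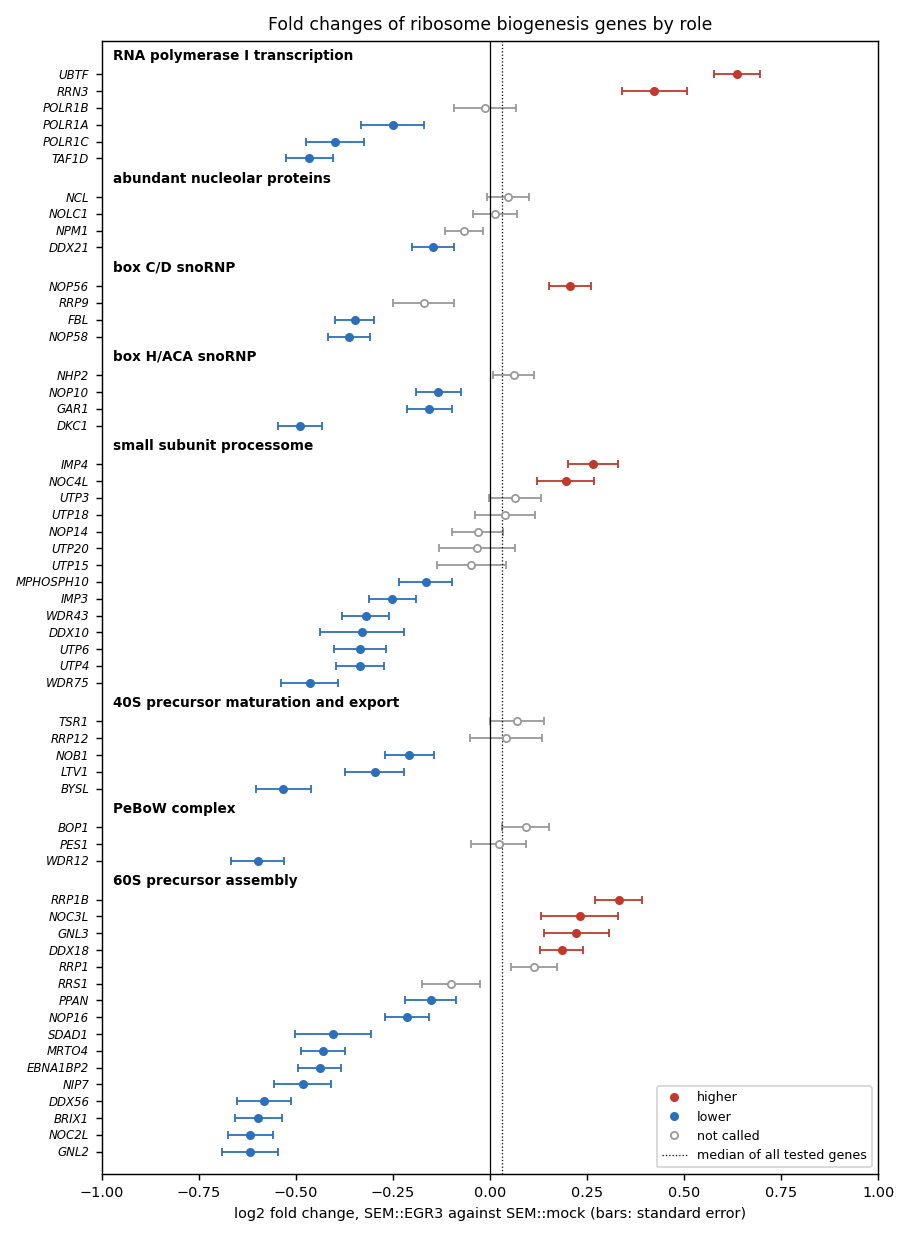
Fitted log2 fold change of SEM::EGR3 against SEM::mock for the 56 tested members, by role, with bars for the standard error. The 30 lower members (blue) outnumber the 9 higher members (red), 17 were not called (open grey), and the dotted line marks the median of all tested genes at 0.03.

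Ratios of counts within a library do not depend on the scaling between libraries, and they were compared for 9 pairs of members that act together or are related. Their absolute size says nothing on the relative number of molecules. The ratio of NOP56 to NOP58 was 0.689, 0.775 and 0.741 in SEM::mock and 1.10, 1.08 and 1.09 in SEM::EGR3. All ratios of NOP56 to NOP58 were thus higher in SEM::EGR3. The ratio of BOP1 to WDR12 was 1.63, 1.85 and 1.55 in SEM::mock and 2.52, 2.94 and 2.72 in SEM::EGR3, and that of PES1 to WDR12 had a mean of 0.820 ± 0.0242 (SD, n = 3) and 1.28 ± 0.135 (SD, n = 3). The count of WDR12 relative to both of its partners was thus lower in each SEM::EGR3 library than in each SEM::mock library. The ratio of GNL2 to GNL3, related GTPases, was 2.41, 2.15 and 3.17 in SEM::mock and 1.35, 1.51 and 1.40 in SEM::EGR3. The mean ratio was 1.53 and 1.06 for IMP3 to IMP4, 1.17 and 1.00 for RRP1 to RRP1B, and 1.25 and 0.983 for DKC1 to NOP10 in SEM::mock and SEM::EGR3, respectively. For these 7 of 9 pairs the lines did not overlap, with an exact permutation p = 0.1 each (two-sided, adjusted p = 0.129 over the 9 pairs), the smallest possible here. The share over all pairs of tested genes was not computed, and 70.1% of single tested genes did not overlap. The ratios restate the fold changes given above and are no separate result. The ratios of NCL to NPM1 (0.864 and 0.936, exact permutation p = 0.4) and of POLR1A to POLR1B (1.05 and 0.889, exact permutation p = 0.2) overlapped between the lines.

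**Figure D5:**
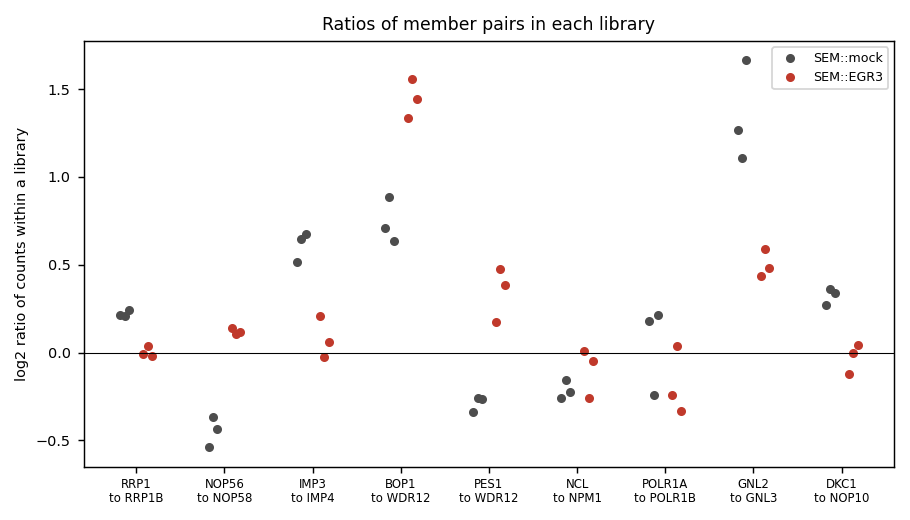
Log2 ratio of the counts of 2 members within each library for 9 pairs, with 1 point per library, SEM::mock in grey and SEM::EGR3 in red. The lines do not overlap for 7 pairs and overlap for NCL to NPM1 and POLR1A to POLR1B.

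Other ribosome biogenesis genes showed a like balance of calls. Of 98 genes that are no members, 52 (53.1%) were lower, 13 (13.3%) higher and 33 not called, with a median log2 fold change of −0.19. Over all tested genes, 32.0% were lower and 36.5% higher. In the level range of the members, these shares were 40.2% and 32.3%. Among 9 further RNA polymerase I genes, 5 were lower and 3 higher, with POLR1D, a subunit shared with RNA polymerase III, at 0.97 (adjusted p = 1.30e-13, edgeR) and POLR1H at −0.78 (adjusted p = 4.12e-11, edgeR). The polymerase I genes were thus called in both directions in the wider list, as in the members and over all tested genes. Of 33 small subunit genes, 15 were lower and 5 higher, from UTP11 at −0.76 to UTP23 at 0.41. Of 36 large subunit genes, 21 were lower and 4 higher, from SBDS at −1.12 to LSG1 at 0.52. SBDS, which releases the factor EIF6 from the new large subunit, was at 101, 86.4 and 102 CPM in SEM::mock and at 43.04, 39.98 and 49.97 CPM in SEM::EGR3, and was the only gene of these 98 called with a log2 fold change of 1 or more in size (adjusted p = 5.78e-12, edgeR). Of 20 exosome and snoRNP assembly genes, 11 were lower and 1 was higher, with MTREX, the helicase of the nuclear exosome, at −0.72 and the exosome subunit EXOSC6 at 0.47. Cytosolic ribosomal protein genes had 37 of 84 tested genes (44.0%) lower and 17 (20.2%) higher, with a median log2 fold change of −0.08.

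Calls of 9 of the 39 called members were lost (adjusted p-value of 0.05 or more, edgeR) when a single library was left out, and these were DDX21 and NOP10, described above, and GAR1, NOC4L, MPHOSPH10, DDX10, NOC3L, PPAN and GNL3. GAR1 lost its call without SEM::EGR3 replicate 1 (adjusted p = 0.0705, edgeR) and DDX10 without this library (0.0800) or SEM::mock replicate 3 (0.0944). NOC4L lost it without SEM::mock replicate 1 or 3 or SEM::EGR3 replicate 1 or 2, with adjusted p-values (edgeR) of up to 0.111. MPHOSPH10 lost it without any library except SEM::mock replicate 2 (up to 0.0917), NOC3L without any library except SEM::EGR3 replicate 2 (up to 0.175). PPAN lost it without SEM::mock replicate 1 or 3 or SEM::EGR3 replicate 2 or 3 (up to 0.129), and GNL3 without SEM::mock replicate 2 or 3 or SEM::EGR3 replicate 1 or 3 (up to 0.269). The other 30 called members kept their call without each library.

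Exon positions of 32 of the 57 members are shared with another gene of GENCODE release 29, and whether strand was used in counting is not given in the sources used here. Values of these genes carry that uncertainty. The named members among them are UBTF, TAF1D, NOP56, NOP58, DKC1, NHP2, IMP4, TSR1, BOP1, WDR12 and GNL2. For NOP56, NOP58 and DKC1 the overlapping genes are small RNAs.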

How the data were processed

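Raw MACE-Seq counts of each gene in each library were deposited by the authors and were used as they stand. Per the labels, the submitters' processing notes name bcl2fastq, Bowtie2, HTSeq and GRCh38. Their versions, the annotation and the strand setting are not given in the sources used here. Column headings that spell ERG3 were read as SEM::EGR3. The authors' own fold changes and p-values, their scaled columns and any comparison drawn from them were not used, and 0 columns of per-sample counts were left unused. A read equals a molecule only where molecular identifiers were counted, which was not checked.

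The 2 lines were compared with edgeR 4.0.16 in R 4.3.3 (filterByExpr, TMM, glmQLFit, glmQLFTest) over all 6 libraries, and p-values were adjusted by Benjamini and Hochberg over 15465 genes. P-values measure the spread between biological replicates of a single line in each group, and not between separately made lines. Replicate libraries differed by more than counting noise. Shares and ratios were compared by exact permutation tests. The fit was tested on simulated data. Of 98 genes changed by 0.5 in size on the log2 scale, 63 were recovered, and 84 of 95 changed by 1. There were 13 false calls among 14841 unchanged genes. Of the 15034 genes in those data, 14841 were unchanged, whereas 68.5% of tested genes were called between the 2 lines. Recovery and false calls with so large a share of changed genes was not tested, so these counts do not carry over to the comparison of the lines. Recovery at the levels of the members was not computed. The alternatives were DESeq2 1.42.0, other normalization factors and filters, thinned counts, a replicate term, a minimum fold change and leaving out each library. Members and lists were chosen with earlier results of these data known. Values per library are given for NCL, NPM1, FBL, DKC1, UBTF, POLR1A, NOP10 and the highest and lowest member of each role, and in the wider list the highest and lowest called gene of each of 4 lists is named. Positions come from GENCODE release 29 and promoters from RefSeq (GRCh38.p14).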

Additional observations from a re-analysis of the deposited data

How the results depend on the processing

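Of the values recomputed for the 20 named members and the pair ratios, that of NPM1, which was not called, was the only one to change sign, from −0.07 to 0.0074 without normalization factors (adjusted p = 0.902, edgeR). With a minimum absolute log2 fold change of 1, the calls were 0 higher and 0 lower for the members and for the ribosomal protein genes, and 0 higher and 1 lower for the 98 other ribosome biogenesis genes. Without normalization factors, 20 of these 98 genes were higher and 44 lower, beside 40.6% and 27.95% of all tested genes. The median log2 fold change of the members was −0.079 without normalization factors, −0.14 with upper-quartile normalization, −0.10 with at least 10 counts in every library and −0.13 with thinned counts. Leaving out each library in turn gave −0.21 to −0.14, with −0.21 without SEM::mock replicate 2, and 26 to 29 lower and 6 to 8 higher members. Of all tested genes, 29.8% to 31.7% were then lower and 34.1% to 35.8% higher. DESeq2 called 27 members lower and 6 higher, beside 28.3% and 32.4% of all tested genes. The difference in summed share was −0.0495 percentage points when the 10 most abundant genes were left out of the total. Calls of NOP10, DDX21, POLR1A and BOP1 depend on the setting as given above, and NCL (adjusted p = 0.0456, edgeR) and NHP2 (adjusted p = 0.0287, edgeR) were called higher without normalization factors. The cause was not tested.

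Same-numbered replicates did not pair, since their deviations correlated at −0.105, −0.063 and −0.034. With the replicate number as a block, 25 members were lower and 8 higher, beside 30.4% and 34.8% of all tested genes. Depth limits SEM::mock most, where the smallest library held 5286115 counts.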
